A study of Rattus norvegicus with 6 samples.

Results

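The Slc25 genes code for the mitochondrial carrier family. They were chosen here by name: every probe set whose platform gene symbol starts with Slc25a followed by a number. The rule found 41 of the 14218 gene symbols on the array, with 60 of the 31042 probe sets that are not controls. It used no signal values, but it was set with earlier results of these data known. Of the 41 genes, 28 had 1 probe set and 13 had several. Slc25a6, Slc25a2, Slc25a26, Slc25a40, Slc25a43, Slc25a47 and Slc25a52, which belong to the family, had no probe set under the rule and were not analysed here. The 41 genes lie on 18 chromosomes.

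The study set kidneys of a congenic rat strain, whose name ends in (9)x3x2Bx1x8, against kidneys of the Dahl salt-sensitive (S) rat. The congenic strain is an S rat in which a short segment of chromosome 9, the interval of a blood pressure locus, comes from the R strain, and by the design of a congenic strain the rest of the genome is that of the controls. Both groups were male, were weaned at 30 days, ate the same diet with 2% salt (TD 7034) and were killed at 53 days, with a congenic and an S rat housed together in each cage. Kidney RNA of 2 rats was pooled for each sample, which gave 3 congenic and 3 S pools from 6 rats per strain, each hybridised to 1 Affymetrix Rat 230 2.0 array. A pool hides the spread between its 2 rats, and whole kidney RNA mixes all segments of the nephron, so fewer cells of a type and less RNA per cell cannot be told apart.

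Mitochondrial carriers are small proteins that span the inner mitochondrial membrane and move nucleotides, phosphate, organic acids, amino acids, cofactors and iron between cytosol and matrix, often as an exchange of 1 solute for another. They feed oxidative phosphorylation, the malate-aspartate shuttle, gluconeogenesis, ammonia production and fatty acid oxidation. The proximal tubule, which makes up most of the kidney cortex, is rich in mitochondria and depends on all of these.

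The arrays overlapped between strains in the markers of the proximal tubule, and single arrays held markers of neighbouring organs. The proximal tubule markers (9 tested probe sets) summed to signals of 25265 to 25521 on congenic arrays and 24873 to 26931 on S arrays. Hepatocyte markers (7 probe sets) summed to 220 to 13399 on congenic arrays, with the high value on congenic 1, and to 212 to 277 on S arrays. Adrenal cortex markers (4 probe sets) summed to 134 to 5356 on congenic arrays, with the high value on congenic 3, and to 128 to 140 on S arrays. Congenic 1 and congenic 3 thus stand apart from the other 4 arrays, and the counts and the carriers with the smallest p are also given without both.

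None of the carriers passed the test between the strains. Values are MAS5 signals, a probe set brightness on a linear scale that says nothing of how 1 gene compares with another. Differences are congenic minus S on the scale of log2(signal + 16), tested with limma over the 18625 probe sets whose mean lay at or above the 40th percentile, a signal of about 25.0. Of the 60 carrier probe sets, 50 (83.3%) from 36 genes were bright enough to be tested, beside 59.95% of all other probe sets. At a Benjamini-Hochberg adjusted p under 0.05, limma called 0 of the 50, against 0 of all 18625 tested (0%). At an unadjusted p under 0.05 it listed 3 of the 50 (6%), 1 higher and 2 lower in congenic kidneys, beside 6.61% of all tested probe sets (3.10% higher and 3.52% lower). The smallest adjusted p of any carrier was 0.693. Without congenic replicates 1 and 3, limma listed 0 of the 50 at either threshold, beside 4.199% of the 18625 with an unadjusted p under 0.05, with a median difference of 0.018 for congenic 2 against the S arrays.

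The carriers reached from the brightest probe sets of the array to signals near its floor. Of the 60, 17 lay above the 90th percentile of signal, and 10 lay below the filter. Slc25a18, Slc25a27, Slc25a31, Slc25a41 and Slc25a53 had no probe set above the filter, so 5 of the 41 genes were described but not tested.

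**Figure D1:**
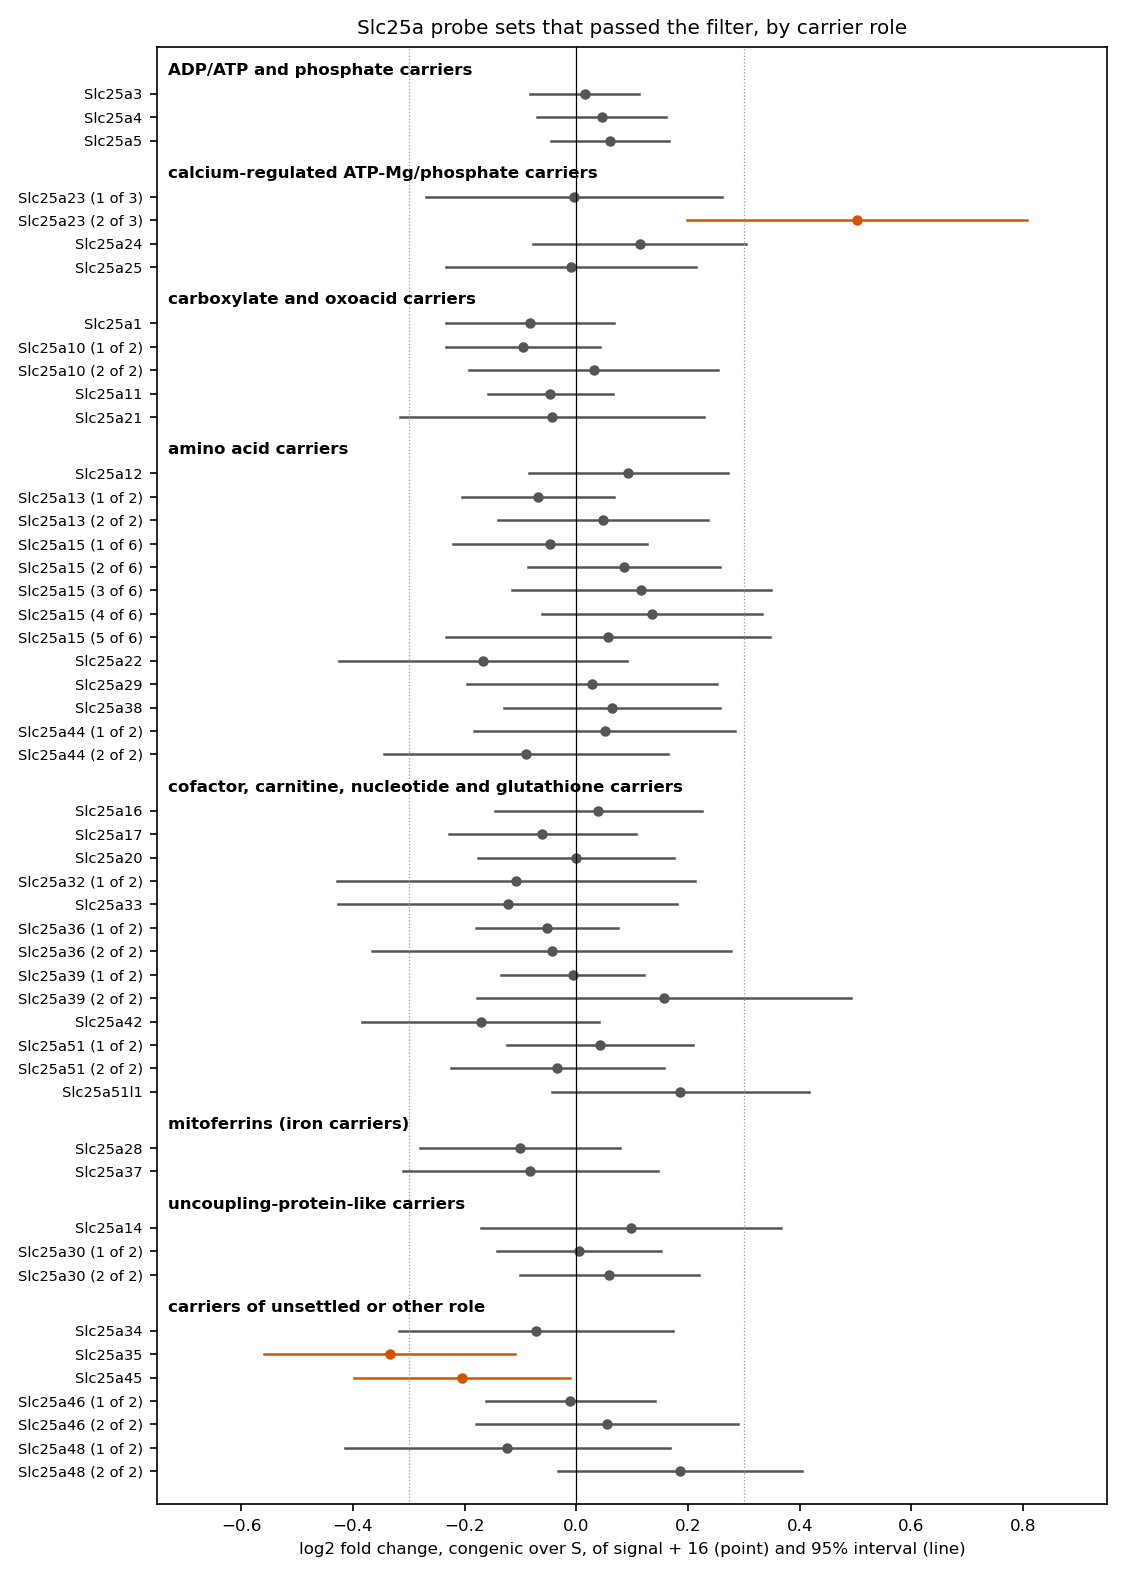
Log2 difference, congenic minus S, of each of the 50 tested carrier probe sets with its 95% interval from limma, grouped by transport role; dotted lines mark 0.3 either way and orange marks an unadjusted p under 0.05. Labels such as (1 of 2) give the rank of a probe set by brightness within its gene. The points lie on both sides of 0, 24 above and 26 below, and 3 probe sets, of Slc25a23, Slc25a35 and Slc25a45, have intervals that leave out 0.

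The differences were small. They ran from -0.33 to 0.50, with a median of -0.0021 beside -0.0036 over all tested probe sets. The median absolute difference was 0.062 for the carriers and 0.080 for all tested probe sets. For 29 of the 50 (58%) the whole 95% interval lay between -0.3 and 0.3, beside 43.1% of all tested probe sets. The median standard error of a carrier was 0.088, beside 0.11 overall. For 6 of the 50 (12%) the congenic and S arrays did not overlap, 3 higher and 3 lower in congenic kidneys, beside 12.5% of all tested probe sets (5.71% higher and 6.79% lower).

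Promoters are printed for 3 carriers: Slc25a23 and Slc25a35, whose probe sets had the smallest p among the 50 tested, and Slc25a3, a bright probe set with almost no difference. Each runs from 250 bases before to 50 bases after the start site in RefSeq's rat assembly GRCr8, given 5′ to 3′ on the gene's strand, and capitals mark a GC box or CCAAT box.

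Slc25a23, chr9:1985316-1985615, minus strand: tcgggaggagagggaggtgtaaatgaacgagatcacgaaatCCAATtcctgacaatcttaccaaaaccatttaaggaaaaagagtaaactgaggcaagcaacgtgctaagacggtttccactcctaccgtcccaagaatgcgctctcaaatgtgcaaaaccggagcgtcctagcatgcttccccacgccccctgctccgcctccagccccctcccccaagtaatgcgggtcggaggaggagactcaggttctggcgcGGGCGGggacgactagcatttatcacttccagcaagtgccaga

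Slc25a35, chr10:54172115-54172414, plus strand: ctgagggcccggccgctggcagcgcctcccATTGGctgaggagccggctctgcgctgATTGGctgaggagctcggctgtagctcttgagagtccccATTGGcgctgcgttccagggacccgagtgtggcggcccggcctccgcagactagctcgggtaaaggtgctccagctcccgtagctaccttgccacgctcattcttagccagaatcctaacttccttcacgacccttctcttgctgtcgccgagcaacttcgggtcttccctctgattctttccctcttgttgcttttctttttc

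Slc25a3, chr7:27506578-27506877, minus strand: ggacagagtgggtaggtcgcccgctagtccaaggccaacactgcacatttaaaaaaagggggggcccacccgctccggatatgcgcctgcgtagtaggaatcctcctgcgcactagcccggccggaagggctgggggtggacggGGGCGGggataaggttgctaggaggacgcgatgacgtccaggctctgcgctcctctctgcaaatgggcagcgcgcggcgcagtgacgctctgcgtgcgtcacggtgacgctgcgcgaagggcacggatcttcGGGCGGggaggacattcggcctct

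The Slc25a23 window held 1 CCAAT box, 209 bases before the start, and 1 GC box at base 8 after it. The Slc25a35 window held 3 CCAAT boxes, 220, 193 and 154 bases before the start, all on the opposite strand and therefore read as ATTGG. The Slc25a3 window held GC boxes 106 bases before and 27 bases after the start, and no CCAAT box. At least 3 CCAAT boxes stood in the windows of 3 carriers, Slc25a28, Slc25a35 and Slc25a42 (8.57% of 35), against 3.24% of the 27457 promoters in the table.

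A promoter was listed for 35 of the 41 carrier genes. Slc25a30, Slc25a32, Slc25a36, Slc25a37, Slc25a46 and Slc25a51l1 were not matched. The GC box (GGGCGG, either strand) stood in 26 of the 35 (74.3%), against 34.9% of all promoters. The CCAAT box (CCAAT, either strand) stood in 19 (54.3%), against 37.7% of all promoters. GC-rich promoters of this sort belong to many genes that most cells use. The median GC content of a carrier promoter was 60.3%, against 52.3% of all, and 20 of the 35 (57.1%) had both over 50% GC and a CpG observed over expected ratio above 0.6, against 33.5% of all. The palindromic core of the site for NRF-1, a regulator of nuclear genes for mitochondria, had no match in the 35 windows, against 0.932% of all promoters. The site for oestrogen-related receptors (TCAAGGTCA, either strand) had none either, against 0.412%. Both are rare in the table as a whole. The cyclic AMP response element (TGACGTCA) stood in the windows of Slc25a25 and Slc25a33 (5.71%), against 1.91%. The E-box CACGTG stood in those of Slc25a31, Slc25a33 and Slc25a51 (8.57%), against 6.65%, and the TATA box (TATAAA, either strand) in those of Slc25a38 and Slc25a48 (5.71%), against 14.3%. These matches describe letters in the windows and were not tested as sites.

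The ADP/ATP and phosphate carriers, which bring the substrates of ATP synthase into the matrix, were among the brightest probe sets of the array. Slc25a3, the phosphate carrier, had signals of 3990.3, 4161 and 4038 on the congenic arrays, against 4001, 4080.5 and 3979.8 on the S arrays. The groups overlapped, and the difference was 0.015 with a 95% interval of -0.083 to 0.11 (limma adjusted p = 0.961). Its sign turned to -0.025 under quantile normalization and to -0.0022 without congenic replicate 2.

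Slc25a4, the ADP/ATP translocase that prevails in heart and muscle, had signals of 1934, 1936 and 1943 on the congenic arrays, against 1819, 1835 and 1980.0 on the S arrays. The 3 congenic arrays were closely alike, and S 3 lay above them. Slc25a5, the more widely used ADP/ATP translocase, had signals of 5602, 5472 and 5873 on the congenic arrays, against 5599, 5401 and 5254 on the S arrays. S 1 reached the congenic values, so the groups overlapped here too. The differences were 0.046 for Slc25a4 (95% interval -0.070 to 0.16) and 0.060 for Slc25a5 (95% interval -0.046 to 0.17). RefSeq lists 9 pseudogenes of Slc25a5, 8 of Slc25a39, 2 of Slc25a3 and 1 of Slc25a4, and whether their transcripts add to these signals was not tested. The fourth member of this role, Slc25a31, is an ADP/ATP carrier of the testis in mouse and human, and its signal was 1.58, 18.6 and 2.24 on the congenic arrays and 1.23, 1.37 and 3.10 on the S arrays, too low for the test.

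**Figure D2:**
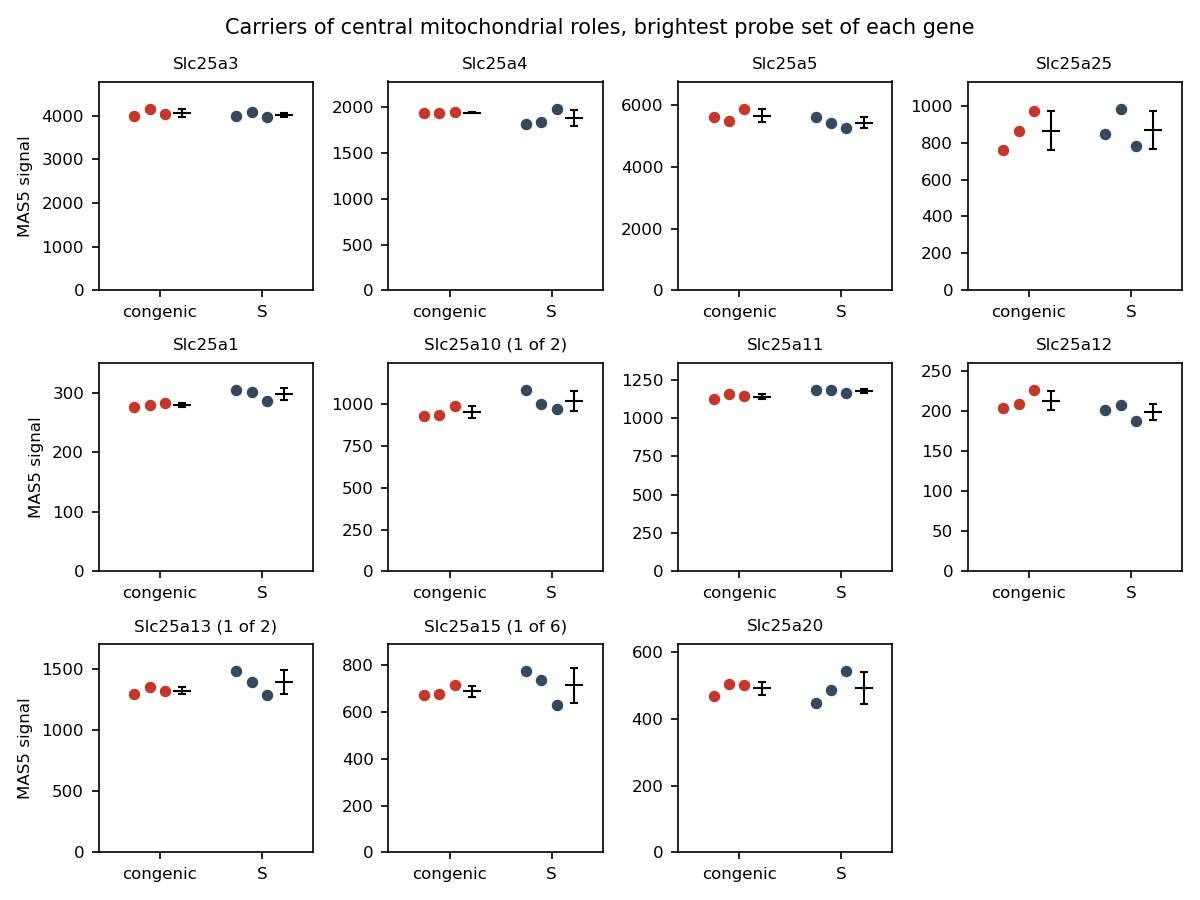
MAS5 signal of the brightest probe set of 11 carriers chosen for their central roles in kidney mitochondria, with 1 dot per array, congenic left of S, and a bar for the mean with its SD (n = 3 pools per strain). The congenic and S dots overlap for all except Slc25a1 and Slc25a11, whose congenic arrays lie just below the S arrays.

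The calcium-regulated ATP-Mg/phosphate carriers adjust the pool of adenine nucleotides in the matrix when cytosolic calcium rises. Slc25a23 holds the smallest p among the 50 tested probe sets and is measured by 3 probe sets on chromosome 9 that did not move together. Probe set 1377550_at had signals of 46.8, 42.7 and 44.9 on the congenic arrays, against 30.7, 20.7 and 30.1 on the S arrays. All 3 congenic arrays lay above all 3 S arrays, and S 2 was the lowest. It averaged 44.8 ± 2.03 in congenic kidneys and 27.2 ± 5.58 in S kidneys (SD, n = 3 pools each), a difference of 0.50 (SE 0.14, 95% interval 0.20 to 0.81). By limma, the unadjusted p was 0.00405 and the adjusted p was 0.693 over all tested probe sets. At this brightness the size of the difference moved with the pseudocount, to 0.26 with 64 and 0.72 with 1. Without congenic replicates 1 and 3, which leaves 1 congenic array, the difference was 0.45 (SE 0.22). Whether the hepatocyte and adrenal RNA on those 2 arrays has a part in the signal of this probe set was not tested.

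Probe set 1379073_at of the same gene had signals of 359.9, 299 and 411 on the congenic arrays, against 326, 333 and 412 on the S arrays. Here the groups overlapped over their whole range, and the difference was -0.0034 (95% interval -0.27 to 0.26). Within each array, the log2 value of 1377550_at minus that of 1379073_at was -2.58, -2.42 and -2.81 in congenic kidneys and -2.87, -3.25 and -3.21 in S kidneys. The 2 probe sets thus stood apart by less on each congenic array than on any S array. The third, 1379169_at, had signals of 0.993, 0.885 and 1.12 on the congenic arrays, against 1.95, 1.89 and 2.17 on the S arrays. Its congenic arrays all lay below its S arrays, the opposite order to 1377550_at, but at the bottom of the array's range and below the filter. Which exons or transcripts the 3 probe sets read was not examined here.

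Slc25a25 had signals of 759, 861 and 972 on the congenic arrays, against 846, 983 and 779 on the S arrays. Congenic 1 and S 3 were the low arrays, S 2 and congenic 3 the high ones, and the difference was -0.0094 (95% interval -0.23 to 0.22). Slc25a24 had a difference of 0.11 (95% interval -0.077 to 0.30), with overlapping groups. Slc25a41, which lies next to Slc25a23 on chromosome 9, had signals of 15.1, 22.1 and 10.1 on the congenic arrays, against 19.8, 19.4 and 24.6 on the S arrays. These are below the filter, and the arrays of the groups were mixed.

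Chromosome 9, which carries the congenic segment, holds 3 of the 41 carrier genes and 7 of the 60 probe sets: those of Slc25a23, Slc25a41 and Slc25a27. Where these genes lie relative to the segment was not examined here. Slc25a27, an uncoupling-protein-like carrier known from brain, was dim on all 3 of its probe sets. Probe set 1390401_at had signals of 13.5, 22.0 and 21.8 on the congenic arrays, against 15.7, 18.4 and 13.5 on the S arrays. Probe set 1387433_a_at had 12.3, 17.5 and 11.0 on the congenic arrays, against 17.2, 26.4 and 8.13 on the S arrays. Probe set 1371141_at had 7.94, 2.71 and 3.48 on the congenic arrays, against 1.98, 1.97 and 7.81 on the S arrays. The groups overlapped on each of the 3, and none reached the filter.

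**Figure D3:**
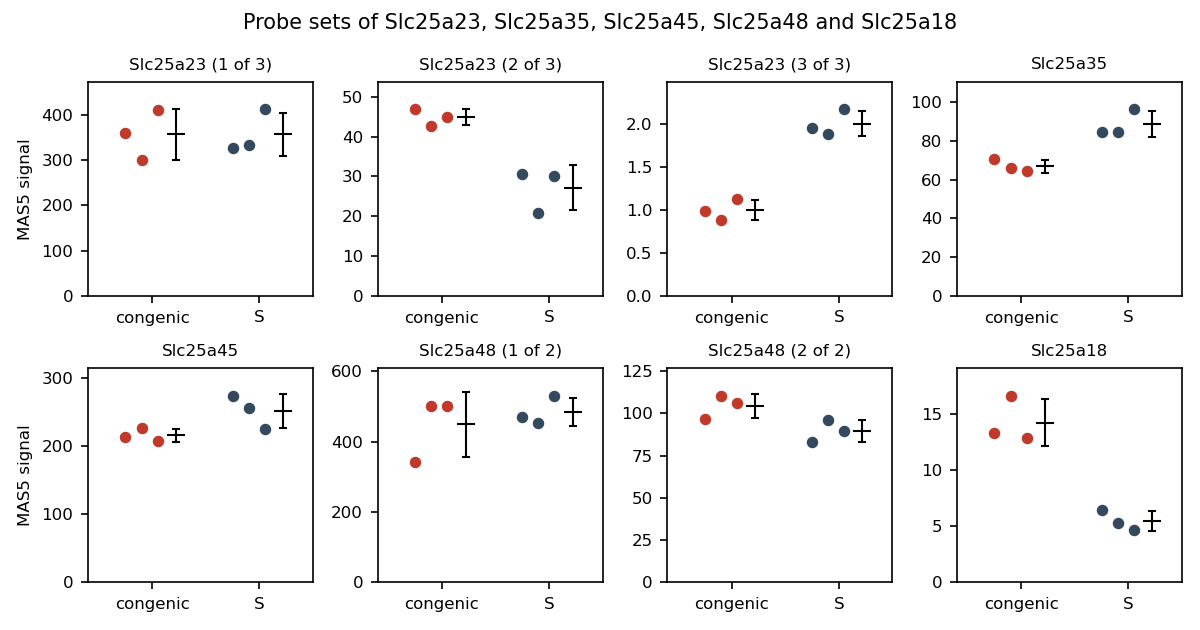
MAS5 signal per array of all probe sets of Slc25a23, Slc25a35, Slc25a45, Slc25a48 and Slc25a18, numbered by brightness within a gene, congenic left of S, with 1 dot per array and a bar for the mean with its SD (n = 3 pools per strain). For Slc25a23 the strains overlap on 1379073_at (1 of 3) and separate on 1377550_at (2 of 3), higher in congenic kidneys. On 1379169_at (3 of 3), which is below the filter, they separate the other way. Slc25a35 is lower on every congenic array.

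Among the carboxylate and oxoacid carriers, 4 of 5 tested probe sets had negative differences, from -0.096 to 0.031 with a median of -0.046, and 4 of the 5 intervals stayed between -0.3 and 0.3. Slc25a1, which exports citrate for lipid synthesis, had signals of 276, 280.1 and 283 on the congenic arrays, against 305, 301 and 287 on the S arrays. Each congenic array lay below each S array, by a difference of -0.083 (SE 0.068, limma adjusted p = 0.833). Slc25a11, the oxoglutarate/malate exchanger of the malate-aspartate shuttle, had signals of 1123, 1155 and 1143 on the congenic arrays, against 1185, 1185 and 1165 on the S arrays. It too did not overlap, yet the difference was only -0.046 (SE 0.051, limma adjusted p = 0.875).

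Slc25a10, the dicarboxylate carrier that exchanges malate or succinate for phosphate, had 2 probe sets of opposite sign. Probe set 1370020_at had signals of 927, 935 and 992 on the congenic arrays, against 1087, 999 and 970.0 on the S arrays. The highest array was S 1, and the groups overlapped between congenic 3 and S 3. Probe set 1383886_at had 128, 112 and 120.5 on the congenic arrays, against 120.1, 104 and 128 on the S arrays. It also overlapped, and the differences were -0.096 (SE 0.062) and 0.031 (SE 0.10). Slc25a21, the oxodicarboxylate carrier, had a difference of -0.043.

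The amino acid carriers gave 13 tested probe sets of 7 genes, 9 with a positive and 4 with a negative difference, from -0.17 to 0.14. None reached an unadjusted p under 0.05. Slc25a12, an aspartate-glutamate carrier of heart, muscle and brain, had signals of 204, 209 and 227 on the congenic arrays, against 202, 208 and 188 on the S arrays. The groups overlapped, with a difference of 0.093 (95% interval -0.085 to 0.27). Slc25a13, the aspartate-glutamate carrier of liver and kidney, had signals of 1296, 1349 and 1321 on the congenic arrays, against 1484, 1395 and 1289 on the S arrays on probe set 1389622_at. S 1 was the highest and S 3 the lowest of the 6, so the congenic arrays fell inside the S range. Its dimmer probe set 1379592_at had 220.2, 217 and 227 on the congenic arrays, against 199.9, 205 and 238 on the S arrays. The congenic arrays again lay inside the S range, and the differences were -0.068 and 0.048.

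Slc25a15, the ornithine carrier of the urea cycle, had 6 probe sets, the most of any carrier. The brightest, 1374800_at, had signals of 673, 675 and 715 on the congenic arrays, against 775, 735 and 631 on the S arrays. S 1 was the highest and S 3 the lowest array, and the difference was -0.047 (95% interval -0.22 to 0.13). Probe set 1393342_at had signals of 452, 517 and 537 on the congenic arrays, against 492, 473 and 449.7 on the S arrays. Probe set 1393947_at had 288, 283 and 343 on the congenic arrays, against 309, 289 and 242 on the S arrays. S 3 was the lowest array on both, and the groups overlapped. Probe set 1381124_at had 272, 277 and 267 on the congenic arrays, against 273, 253 and 216 on the S arrays. Here congenic 1 and congenic 3 fell just below S 1. Probe set 1397647_at had 94.3, 69.7 and 91.1 on the congenic arrays, against 81.8, 69.4 and 91.7 on the S arrays. Its arrays were mixed, and the differences of these 4 probe sets were 0.085, 0.12, 0.14 and 0.057, each with an interval that included 0. The sixth, 1381440_at, had 0.873, 1.74 and 1.27 on the congenic arrays, against 1.06, 5.05 and 1.29 on the S arrays, and was not tested. Of the 11 carriers with several tested probe sets, 9 had both signs. The median gap between the highest and lowest difference was 0.13, and the median standard error of a carrier was 0.088. The share of other genes with both signs is not given here.

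The glutamate carriers are Slc25a22 and Slc25a18. Slc25a22 had a difference of -0.17 (95% interval -0.42 to 0.091), with overlapping groups. Slc25a18 had signals of 13.3, 16.6 and 12.8 on the congenic arrays, against 6.43, 5.30 and 4.67 on the S arrays. Every congenic array was higher than every S array, but all 6 lay below the filter. When all probe sets were tested, its difference was 0.49 (SE 0.12, limma adjusted p = 0.803, unadjusted p = 0.00259). In that fit the unadjusted limma p of Slc25a23 (1377550_at) was 0.00757 and that of Slc25a35 was 0.0100, so Slc25a18 then had the smallest p of the 60. For the carriers of basic amino acids (Slc25a29) and glycine (Slc25a38) the differences were 0.028 and 0.064. The 2 probe sets of Slc25a44, a carrier of branched-chain amino acids in mouse brown fat, gave 0.051 and -0.090.

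The carriers of cofactors, carnitine, nucleotides and glutathione gave 13 tested probe sets of 10 genes, 4 positive and 9 negative, from -0.17 to 0.19. Slc25a20 exchanges acylcarnitine for carnitine and so brings fatty acids to oxidation in the matrix. Its signals were 468, 505 and 500.3 on the congenic arrays, against 447, 487 and 544 on the S arrays. S 1 was the lowest and S 3 the highest, with the congenic arrays between them, and the difference was -0.00075 (95% interval -0.18 to 0.17). Slc25a39, a glutathione carrier, and Slc25a51, an NAD carrier, had differences of -0.0067 and 0.042 on their brightest probe sets and of 0.16 and -0.034 on the others. The pyrimidine nucleotide carriers Slc25a36 and Slc25a33 gave -0.052 and -0.044 on the 2 probe sets of Slc25a36 and -0.12 on that of Slc25a33. Slc25a32, which carries folate, gave -0.11 on its brighter probe set, and its other one was below the filter. Slc25a17, a carrier of the peroxisome, gave -0.061, and Slc25a16 gave 0.040.

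Slc25a51l1, a locus on chromosome 14 named for its likeness to Slc25a51, had signals of 178, 177 and 219 on the congenic arrays, against 172, 149 and 177 on the S arrays. The congenic arrays were all above the S arrays, though by a hair between congenic 2 and S 3. The difference was 0.19 (SE 0.10, limma adjusted p = 0.782), and whether RNA of Slc25a51 also binds to this probe set was not tested. The most negative value of the role was -0.17, of Slc25a42, which carries coenzyme A into mitochondria (95% interval -0.38 to 0.041).

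The iron carriers Slc25a37 and Slc25a28, mitoferrins 1 and 2, had differences of -0.082 and -0.10, and both groups overlapped. The uncoupling-protein-like carriers had 3 tested probe sets, all with positive differences, also under quantile normalization and median centring. Slc25a30, named in mouse as kidney mitochondrial carrier protein 1, gave 0.0052 and 0.059 on its 2 probe sets, and Slc25a14 gave 0.098 (95% interval -0.17 to 0.37).

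The remaining carriers have other or unsettled roles and hold both probe sets with an unadjusted p under 0.05 and a lower signal in congenic kidneys. Slc25a35, on chromosome 10, had signals of 70.6, 66.1 and 64.3 on the congenic arrays, against 84.8, 84.8 and 96.3 on the S arrays. The congenic arrays all lay below the S arrays, with S 3 the highest. It averaged 67.0 ± 3.24 in congenic kidneys and 88.7 ± 6.64 in S kidneys (SD, n = 3 pools each), a difference of -0.33 (SE 0.10, 95% interval -0.56 to -0.11). By limma, the unadjusted p was 0.00763 and the adjusted p was 0.701. Without congenic replicates 1 and 3 the difference was -0.35 (SE 0.16).

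Slc25a45, on chromosome 1, had signals of 213, 227 and 208 on the congenic arrays, against 274, 257 and 225 on the S arrays. The groups overlapped, since congenic 2 was above S 3. It averaged 216 ± 9.80 in congenic kidneys and 252 ± 24.6 in S kidneys (SD, n = 3 pools each), a difference of -0.21 (SE 0.087). By limma, the unadjusted p was 0.0395 and the adjusted p was 0.746. Without S replicate 1 the difference was -0.15 and the unadjusted limma p was 0.136, and without congenic replicates 1 and 3 the difference was -0.14 (SE 0.13).

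Slc25a48, linked to choline uptake into mitochondria, had 2 probe sets that differed by 0.31 between their log2 differences. Probe set 1389678_at had signals of 343, 502 and 502 on the congenic arrays, against 470.3, 452 and 529.6 on the S arrays. Congenic 1 stood below the other 5 arrays. Its difference was -0.12 (SE 0.13), and 0.053 without congenic replicate 1. Probe set 1390556_at had 96.6, 110.3 and 106 on the congenic arrays, against 83.2, 96.2 and 89.8 on the S arrays. On this probe set all congenic arrays were higher than all S arrays, with a difference of 0.19 (SE 0.098, limma adjusted p = 0.782). Within arrays, the log2 value of 1390556_at minus that of 1389678_at was -1.67, -2.04 and -2.08 in congenic kidneys and -2.29, -2.06 and -2.37 in S kidneys. Slc25a46, an outer membrane protein that shapes mitochondria, gave -0.011 and 0.056, and Slc25a34 gave -0.072. Slc25a53 had signals of 23.3, 17.1 and 21.5 on the congenic arrays, against 18.02, 14.3 and 16.6 on the S arrays, below the filter.

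The 3 arrays of a strain differed among themselves in the carriers as a group: the SD within strains of the median deviation was 0.037, beside a median difference between strains of -0.0021. On each array, the deviation of the 50 carrier probe sets from their own 6-array means had a median of -0.061, 0.00093 and 0.035 on congenic arrays 1, 2 and 3, and of 0.019, 0.0026 and -0.019 on S arrays 1, 2 and 3. Over all tested probe sets these medians lay between -0.0039 and 0.0073. Congenic 1 was the lowest array for 14 of the 50 carriers (28%), beside 17.98% of all tested probe sets, and the highest for 5 (10%), beside 17.5%. Congenic 3 was the highest for 14 (28%), beside 15.4%. S 1 was the highest for 12 (24%), close to its 21.4% of all tested probe sets. It was the lowest for 6 (12%), beside 21.9%. S 3 was the lowest for 11 (22%), beside 14.3%. On the log2(signal + 16) scale, no carrier had 1 array more than 2-fold beyond the other 5. The added 16 damps dim probe sets such as that of Slc25a31, whose signal was 18.6 on congenic 2 and at most 3.10 elsewhere.

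**Figure D4:**
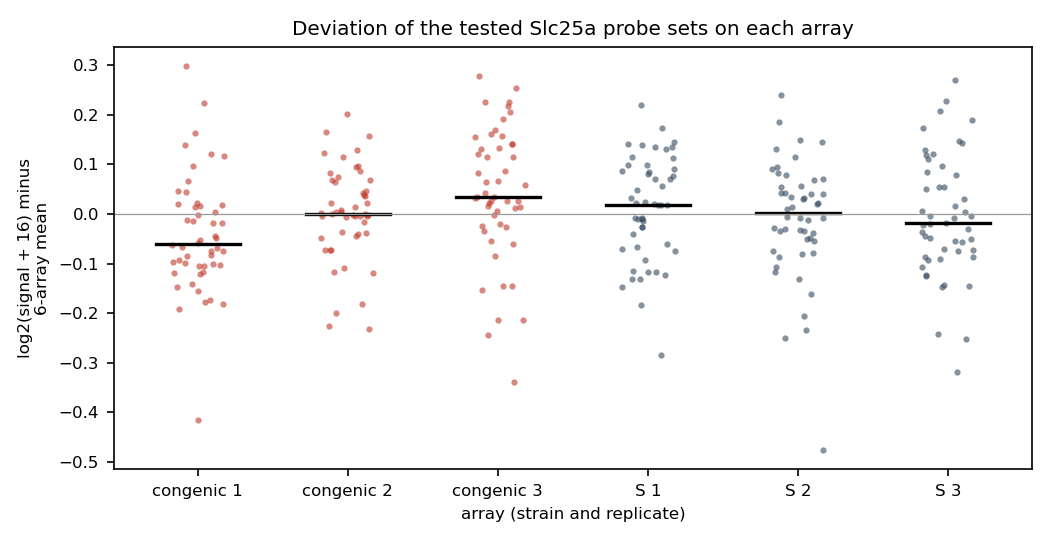
Deviation of each of the 50 tested carrier probe sets from its mean over the 6 arrays, on the log2(signal + 16) scale, with 1 dot per probe set and a line at the median of each array, congenic arrays left of S arrays. The medians run from -0.061 on congenic 1 to 0.035 on congenic 3, and the 3 S arrays lie between them.

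Summed markers of some other kidney segments and tissues did not overlap between the strains. The collecting duct markers (4 probe sets) summed to 4530 to 5321 on congenic arrays and 3805 to 4280 on S arrays. Aqp2 and Aqp3, the brightest of them, did not overlap, with differences of 0.23 and 0.43. Both probe sets of Scnn1g overlapped, at 0.17 and 0.075. Markers of the thick ascending limb and distal tubule (5 probe sets) summed to 12055 to 12695 on congenic arrays and 11545 to 12026 on S arrays. Of the 5 probe sets of thick ascending limb and distal tubule, 3 had a positive and 2 a negative difference, with a median of 0.026 and Bsnd, a chloride channel subunit, at -0.21 (SE 0.088, limma adjusted p = 0.746). Urothelium markers (4 probe sets) summed to 381 to 452 on congenic arrays and 473 to 529 on S arrays, and muscle markers (2 probe sets) to 244 to 280 on congenic arrays and 285 to 356 on S arrays. Erythroid markers (3 probe sets) overlapped, with sums of 7783 to 8444 on congenic arrays and 7168 to 8071 on S arrays. The ratio of 3′ to 5′ signal of Actb, which rises with RNA breakdown, was 6.15 to 7.17 on congenic arrays and 6.54 to 9.42 on S arrays. The part of these differences in the carrier values was not tested.

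Transporters and enzymes that work beside the carriers were listed beside them. Of 58 genes listed for their shared routes, 54 were measured, and 73 of their 79 probe sets were tested. limma called 0 of the 73 after adjustment, and 2 (2.74%, both higher in congenic kidneys) had an unadjusted p under 0.05, beside 6.61% of all tested probe sets. Their median difference was 0.0090. By role, the median was 0.036 for 5 probe sets of carriers under other symbols, -0.063 for 20 of other inner membrane transporters, 0.0050 for 4 of the outer membrane channels, 0.021 for 14 of the import and TIM22 insertion path, and 0.034 for 30 of enzymes that share substrates.

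Mdh1, the cytosolic malate dehydrogenase of the malate-aspartate shuttle, had signals of 4570.2, 4369 and 4233 on the congenic arrays, against 3971, 4099 and 4055 on the S arrays. All congenic arrays were above the S arrays, by 0.12 (SE 0.047, limma adjusted p = 0.746, unadjusted p = 0.0298). Its other probe set had the opposite sign, -0.10 (SE 0.079). Mthfd2, a mitochondrial enzyme of folate metabolism, had signals of 32.8, 47.4 and 68.5 on the congenic arrays, against 24.1, 31.5 and 30.7 on the S arrays. These too did not overlap, with a difference of 0.52 (SE 0.19, limma adjusted p = 0.736, unadjusted p = 0.0199).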

How the data were processed

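Kidney RNA of 3 congenic and 3 S pools of 2 rats each was measured on 6 arrays. The deposited table holds intensity values, 1 signal per probe set and array on a linear scale, made by the authors with MAS5 per the submitters' processing notes, with no detection calls used here. The MAS5 version and settings are not given in the sources used here. Without its top and bottom 2 percent, each array averages about 150.1, and array medians ran from 42.9 to 46.0, so no further scaling was applied. The number of arrays limits the precision, and p-values cover the spread between these pools.

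From these values, log2(signal + 16) was modelled over 18625 of 31042 probe sets with R 4.3.3 and limma 3.58.1, using lmFit and an eBayes step with an intensity trend. The fit did without 57 controls and without 12417 probe sets whose 6-array mean lay under the 40th percentile. Tests were two-sided with Benjamini-Hochberg adjustment over all tested probe sets, and an exact permutation test of 3 arrays against 3 cannot go below p = 0.1. The fit was tested on simulated data. Gene symbols came from the platform annotation, and all 60 carrier probe sets matched RefSeq genes. Those of Slc25a51 (2 probe sets) list several gene IDs on the platform, not all of which matched. Promoters are RefSeq's (GRCr8).

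Members and lists were chosen with earlier results of these data known. Every array value is given for carriers with an unadjusted p under 0.05, on chromosome 9, or of central kidney roles. The same holds for carriers with probe sets over 0.3 apart on the log2 scale. It also holds for any carrier with 1 array over 2-fold beyond the other 5 on the log2(signal + 16) scale. Slc25a18, Slc25a31, Slc25a53 and Slc25a51l1 were added after their values were seen, to account for dim or separated probe sets. Alternatives changed the pseudocount, filter, normalization, variance model and replicate block, and left out arrays.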

Additional observations from a re-analysis of the deposited data

How the results depend on the processing

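No carrier probe set passed the adjusted threshold in any of the 18 alternatives. Leaving out 1 array at a time gave 0 to 3 calls over all tested probe sets (1 without congenic replicate 2 and 3 without S replicate 3), 2 to 5 carriers with an unadjusted p under 0.05 (5, or 10%, without congenic replicate 2, beside 5.42% of all tested probe sets), and 9 to 14 carriers whose groups do not overlap. These counts were 18% to 28% of the 50, beside 20.6% to 27.4% of all tested probe sets, since fewer arrays overlap less by construction. Without congenic replicates 1 and 3 together, 0 carriers had an unadjusted p under 0.05 and 22 (44%) did not overlap, beside 49.4% of all tested probe sets, with 1 congenic array assumed to vary like the S arrays. The filter at the 60th percentile left 43 carrier probe sets and 1 with an unadjusted p under 0.05, since those of Slc25a23 and Slc25a35 were no longer tested. The median carrier difference lay between -0.015 and 0.034 when single arrays were left out. Slc25a23 (1377550_at) ran from 0.26 to 0.72 and kept an unadjusted p under 0.05 in 16 of 17 alternatives, Slc25a35 ran from -0.40 to -0.22 and kept it in 16 of 17, and Slc25a45 ran from -0.28 to -0.14 and kept it in 12 of 18. None of the 52 values of these 3 changed sign, but the 3 were picked for their p in these same arrays. Their steady sign and p under refits of the same arrays are therefore no separate support. Of the 412 values of the 23 named tested probe sets, which include these 3, 20 had the other sign.

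The labels number the pools 1 to 3 in both strains, but pools of the same number did not deviate together (correlations of 0.043, 0.022 and 0.017 over all tested probe sets), so the numbers were not taken as pairs. With the replicate block, 0 probe sets were called, 3 carriers had an unadjusted p under 0.05 and the median carrier difference was -0.0021, so the block changed no call. Over all tested probe sets, 1314 had an unadjusted p under 0.05 with the replicate block, against 1232 without it.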

Other observations

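Ucp1, the uncoupling protein of brown fat and a carrier under another symbol, had signals of 80.2, 66.4 and 157 on the congenic arrays, against 81.9, 180.2 and 199 on the S arrays. Congenic 3, S 2 and S 3 were the high arrays, and the difference was -0.53 (SE 0.31, limma adjusted p = 0.782). The fat markers (4 tested probe sets) summed to 986 to 1514 on congenic arrays and 1296 to 1657 on S arrays, and their part in the Ucp1 values was not tested. Ucp2, an uncoupling protein of many tissues, had signals of 223, 217 and 268 on the congenic arrays, against 214, 186 and 227 on the S arrays, with overlapping groups and a difference of 0.16 (SE 0.10).

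Mtch2, a carrier-like protein of the outer membrane, had 2 probe sets. On 1375131_at its signals were 1435, 1482 and 1456 on the congenic arrays, against 1412, 1343 and 1353 on the S arrays. All congenic arrays were higher, by 0.089 (SE 0.051, limma adjusted p = 0.782), while on 1372566_at the groups overlapped at 0.036. Micu3, a regulator of the calcium uniporter, had signals of 189, 202 and 171 on the congenic arrays, against 233, 211 and 206 on the S arrays. These did not overlap, with a difference of -0.19 (SE 0.088, limma adjusted p = 0.758). On 1375565_at, a probe set of Timm22, the channel that inserts carriers into the inner membrane, the signals were 105, 101 and 81.2 on the congenic arrays, against 113, 108 and 119 on the S arrays. The congenic arrays were again the lower ones, with a difference of -0.22 (SE 0.11), and its other probe set gave -0.13 with overlapping groups. Mtch2, Micu3 and Timm22 were named after their values were seen. Among the related genes, probe sets of Sfxn1, Abcb8 and Micu2 (lower in congenic kidneys) and of Ogdh (higher) did not overlap either. Over all tested probe sets, 12.5% did not overlap, so such a separation is common on these arrays.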
